A study of Mus musculus with 6 samples.

Results

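The C-type lectin receptors of myeloid cells examined here are 9 genes, Clec4a1, Clec4a2, Clec4a3, Clec4d, Clec4e, Clec4n, Clec5a, Clec7a and Clec12a, picked by symbol from the 34199 genes in the count tables. All 9 passed the filter on low counts that left 12460 genes for testing, but Clec4a1 and Clec4n passed it only through the HOXA9 OFF libraries. The other 7 were above the filter's level in every library.

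The RNA came from HOXA9-immortalized granulocyte-macrophage progenitors (iGMPs), clonal mouse lines derived from C57Bl/6 bone marrow. In all 3 groups the cells carried a GFP reporter driven by the Lysozyme promoter and a fusion of HOXA9 with the part of the estrogen receptor that binds ligand, so that HOXA9 is active only while estradiol is present, and they were grown with stem cell factor. In CAF-1 OFF cells, 500 µM IPTG for 24 h turned on a hairpin that targets Chaf1b, a gene for part of the CAF-1 histone chaperone, with estradiol kept at 150 ng/ml. Control cells also received IPTG for 24 h and kept estradiol, whereas HOXA9 OFF cells had estradiol washed out for 24 h. The labels did not say whether the HOXA9 OFF cultures received IPTG or which clone each library came from, and the sample titles did not name the construct of the control cells. In the paper, control clones for IPTG held an inducible vector with a spacer sequence in place of the Chaf1b hairpin. Estradiol may thus not be the only difference between HOXA9 OFF and control, nor the hairpin the only one between CAF-1 OFF and control. There were 2 RNA-seq libraries per group. Because the labels did not say that these were separate cultures, p-values measure only the spread between the deposited libraries, which may be technical.

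C-type lectin receptors are membrane proteins with a carbohydrate-recognition-like fold through which monocytes, macrophages, neutrophils and dendritic cells sense microbial sugars and glycolipids, as well as products of dead cells. The activating receptors reach the kinase Syk either through adaptors with an immunoreceptor tyrosine-based activation motif (ITAM), the Fc receptor gamma chain (Fcer1g) and DAP12 (Tyrobp), or through a tyrosine motif in their own tail, and Syk then signals through the Card9, Bcl10 and Malt1 complex. The inhibitory receptors carry an immunoreceptor tyrosine-based inhibitory motif (ITIM) and recruit phosphatases that damp such signals.

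The sequence just upstream of the start is shown for the 4 receptor genes that had the highest levels in control cells, Clec4e and Clec4d, which were lower in HOXA9 OFF cells, and Clec12a and Clec5a, which were higher. Each run is the 250 bases before the RefSeq start, read 5′ to 3′ on the strand of the gene, with coordinates of GRCm38.p6, a later build than the mm9 genome of the counts. Capitals mark matches on either strand to GAGGAA (the core of a PU.1-type purine box, TTCCTC on the opposite strand), TTGCNNAA (a C/EBP-type site), TGANTCA (an AP-1 site) and TGTGGT (a RUNX site), the letter patterns of factors that act in myeloid cells.
Clec4e (chr6:123289872-123290121, minus strand): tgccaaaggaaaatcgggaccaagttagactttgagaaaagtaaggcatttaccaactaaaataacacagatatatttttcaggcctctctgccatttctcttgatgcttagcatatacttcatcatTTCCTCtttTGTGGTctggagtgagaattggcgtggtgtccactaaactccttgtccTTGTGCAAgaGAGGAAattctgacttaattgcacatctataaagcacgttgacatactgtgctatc
Clec4d (chr6:123261857-123262106, plus strand): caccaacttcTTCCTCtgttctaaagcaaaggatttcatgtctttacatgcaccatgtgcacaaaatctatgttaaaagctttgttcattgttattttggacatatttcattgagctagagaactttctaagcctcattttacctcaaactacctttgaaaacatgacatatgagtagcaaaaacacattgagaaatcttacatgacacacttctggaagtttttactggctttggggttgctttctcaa
Clec12a (chr6:129349994-129350243, plus strand): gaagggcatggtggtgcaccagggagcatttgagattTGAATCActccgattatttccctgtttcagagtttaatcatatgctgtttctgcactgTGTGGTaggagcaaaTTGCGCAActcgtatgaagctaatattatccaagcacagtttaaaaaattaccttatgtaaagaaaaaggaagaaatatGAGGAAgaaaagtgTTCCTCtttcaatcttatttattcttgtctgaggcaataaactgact
Clec5a (chr6:40585806-40586055, minus strand): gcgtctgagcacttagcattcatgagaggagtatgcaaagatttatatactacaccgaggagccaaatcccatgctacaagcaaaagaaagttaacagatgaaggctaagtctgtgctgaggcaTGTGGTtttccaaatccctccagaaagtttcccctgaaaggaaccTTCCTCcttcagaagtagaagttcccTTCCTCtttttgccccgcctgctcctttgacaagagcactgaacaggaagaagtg

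A window was on hand for 8 of the 9 genes, all but Clec4n. The purine box letters occurred in 7 of these 8, all but Clec4a2, against 25.9% of the 27025 genes with a window of this length. The RUNX letters occurred in 5 of 8 (Clec4a1, Clec4a3, Clec4e, Clec5a and Clec12a), against 15.9% of genes, and the C/EBP-type letters in 2 of 8 (Clec4e and Clec12a), against 10.8%. The AP-1 letters occurred only in the Clec12a window, against 7.82% of genes. Clec4e, which was lower in HOXA9 OFF cells, and Clec12a, which was higher, both held the purine box, C/EBP-type and RUNX letters, so these matches did not sort the genes by direction. They are matches of letters and not measured binding.

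The libraries held 16773560 to 25170898 reads assigned to genes, and 3 reads corresponded to 0.118 to 0.182 CPM (reads of a gene relative to all gene reads of its library, on a per-1000000 scale). All CPM values use library sizes adjusted by the TMM method of edgeR. Chaf1b, the target of the hairpin, stood at 90 and 105 CPM in control, 17.8 and 12.1 CPM in CAF-1 OFF, and 64.6 and 61.4 CPM in HOXA9 OFF. Hoxa9 transcript was present in every library, at 204 to 362 CPM, and does not check the estradiol washout, which acts on the fusion protein. Of the progenitor markers, Mpo and Elane were abundant in all 6 libraries, while Lyz2, which encodes a lysozyme, was listed at 0 to 4 reads.

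All 9 receptor genes differed between HOXA9 OFF and control cells. A gene was called changed in the edgeR quasi-likelihood test when its fold change was at least 1.5 and its Benjamini-Hochberg false discovery rate (FDR), taken over all genes tested, was under 0.05. In HOXA9 OFF against control, 7 receptor genes were called higher (Clec4a1, Clec4a2, Clec4a3, Clec4n, Clec5a, Clec7a and Clec12a) and 2 lower (Clec4d and Clec4e), against a background of 22.0% of all tested genes called, 13% higher and 8.97% lower. For each of the 9, both HOXA9 OFF libraries lay outside the range of the control libraries, as they also did in the higher direction for 35.1% and in the lower direction for 35.9% of all genes. Among the 7 genes that were above the filter's level in every library, 5 were higher and 2 lower, with a median log2 fold change of 2.11, against -0.00349 over all tested genes. In bulk RNA, a change in the fraction of cells that express a gene and a change in RNA per cell cannot be told apart.

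**Figure D1:**
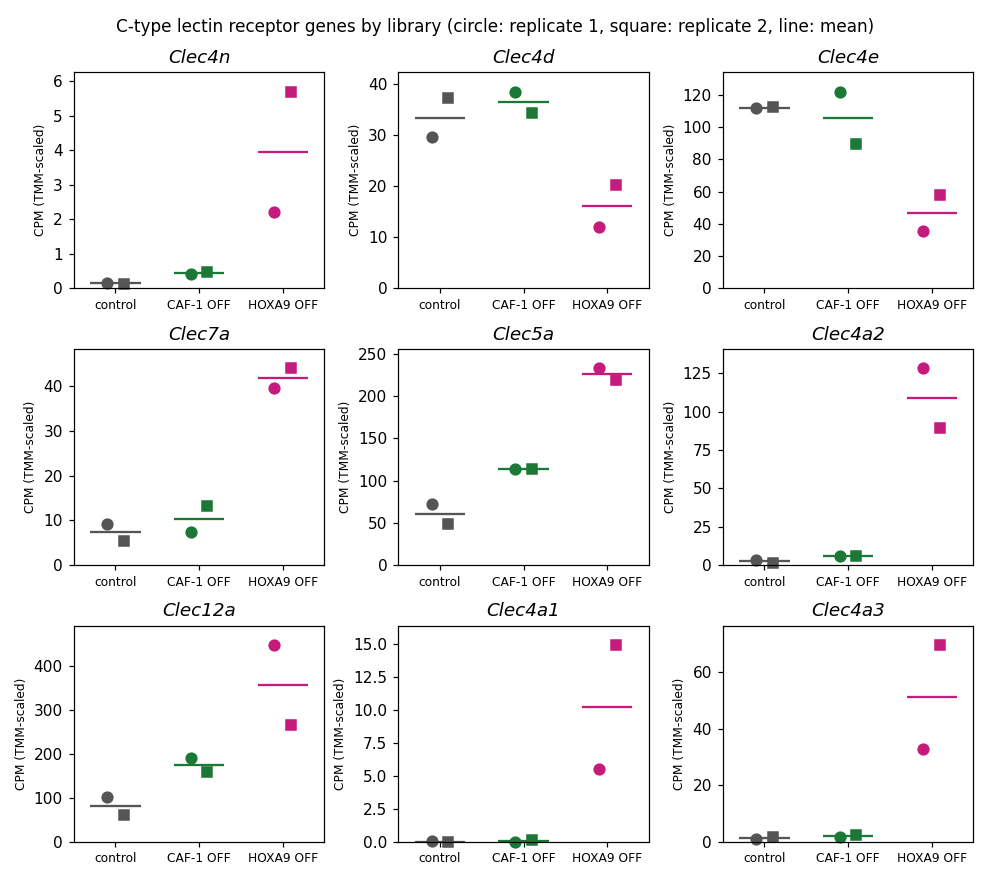
Level of each receptor gene in each of the 6 libraries, in TMM-scaled CPM on a linear axis that starts at 0, with circles for replicate 1, squares for replicate 2 and a line at the mean of each group. Both HOXA9 OFF libraries lie above all others for 7 genes and below all others for Clec4d and Clec4e, and the 2 CAF-1 OFF libraries lie above both control libraries for Clec4n, Clec5a, Clec4a2 and Clec12a.

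Of the receptors that pair with the Fc receptor gamma chain, Clec4e and Clec4d were lower in HOXA9 OFF than in control. Clec4e encodes Mincle, which binds the mycobacterial glycolipid trehalose dimycolate, and it stood at 112 and 113 CPM in control, 122 and 89.6 CPM in CAF-1 OFF and 35.5 and 58.1 CPM in HOXA9 OFF. Both HOXA9 OFF libraries were therefore below the other 4, whose ranges overlapped. Its log2 fold change in HOXA9 OFF against control was -1.27 ± 0.25 (SE, edgeR FDR 0.0108). Clec4d encodes MCL, a partner of Mincle, and followed the same course, with 29.5 and 37.2 CPM in control, 38.4 and 34.3 CPM in CAF-1 OFF and 12.0 and 20.2 CPM in HOXA9 OFF. Its log2 fold change in HOXA9 OFF against control was -1.05 ± 0.25 (SE, edgeR FDR 0.0226). The Clec4d call depended on 2 libraries, since its edgeR FDR rose to 0.111 without control replicate 2 (log2 fold change -0.88) and to 0.0785 without HOXA9 OFF replicate 1 (-0.72). It held without control replicate 1 (-1.22, edgeR FDR 0.0407) and without HOXA9 OFF replicate 2 (-1.46, edgeR FDR 0.00932).

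Clec4n encodes dectin-2, a receptor for fungal mannans that signals through the same gamma chain, and it moved the other way from a low level. It passed the filter only through HOXA9 OFF, so its direction is no free test of a difference among these receptors. Its reads numbered 4 and 2 in control, 8 and 9 in CAF-1 OFF and 46 and 94 in HOXA9 OFF, or 0.157 and 0.116, 0.416 and 0.456, and 2.22 and 5.70 CPM. The log2 fold change in HOXA9 OFF against control was 4.76 ± 0.66 (SE, edgeR FDR 0.00332), and it was 3.94 without HOXA9 OFF replicate 2, the library with the higher level.

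Clec7a encodes dectin-1, the receptor for fungal beta-glucans, which carries its own tyrosine motif and needs no adaptor. It stood at 9.23 and 5.40 CPM in control, 7.27 and 13.3 CPM in CAF-1 OFF and 39.6 and 44.0 CPM in HOXA9 OFF, so that control and CAF-1 OFF overlapped and HOXA9 OFF lay above both. Its log2 fold change in HOXA9 OFF against control was 2.50 ± 0.35 (SE, edgeR FDR 0.00335). Clec5a encodes MDL-1, which signals through DAP12 and binds dengue virus. Its libraries formed 3 separate steps, at 71.7 and 48.2 CPM in control, 114 and 114 CPM in CAF-1 OFF and 233 and 219 CPM in HOXA9 OFF. The log2 fold change in HOXA9 OFF against control was 1.91 ± 0.18 (SE, edgeR FDR 0.00114), the smallest of the 7 increases.

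Among the inhibitory receptors, Clec12a encodes MICL, an ITIM-bearing receptor that recognizes uric acid crystals, and it reached the highest level of the 9 genes. It stood at 102 and 61.9 CPM in control, 191 and 158 CPM in CAF-1 OFF and 447 and 264 CPM in HOXA9 OFF, again with no overlap between groups. Its log2 fold change in HOXA9 OFF against control was 2.11 ± 0.32 (SE, edgeR FDR 0.00434). Clec4a2 encodes DCIR, which also carries an ITIM, and stood at 3.42 and 1.34 CPM in control, 6.03 and 6.18 CPM in CAF-1 OFF and 128 and 89.1 CPM in HOXA9 OFF. Its log2 fold change in HOXA9 OFF against control was 5.45 ± 0.39 (SE, edgeR FDR 0.000475), and it was 6.33 without control replicate 1. Of the 50-base stretches of its transcripts, 6.49% also occur in transcripts of other genes, among them Clec4a4 and Clec4b1, and reads with more than 1 alignment are dropped by the counting tool HTSeq, so its level is uncertain to that extent. The other 8 receptor genes shared no such stretch, but only annotated protein-coding transcripts were searched, not pseudogenes, noncoding RNA or the rest of the genome.

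Clec4a3 and Clec4a1 are close paralogs of Clec4a2 in the mouse. Clec4a3 stood at 1.06 and 1.80 CPM in control, 1.71 and 2.48 CPM in CAF-1 OFF and 32.7 and 69.4 CPM in HOXA9 OFF. Its log2 fold change in HOXA9 OFF against control was 5.19 ± 0.47 (SE, edgeR FDR 0.00095), and it was 4.54 without HOXA9 OFF replicate 2. Clec4a1 was close to absent outside HOXA9 OFF, with 1 and 0 reads in control and 0 and 2 in CAF-1 OFF, against 115 and 246 reads in HOXA9 OFF (5.55 and 14.9 CPM). The ratio of its summed reads was 414-fold over control, with an exact 95% interval of 73.8 to 16396 that covers counting error only, and the edgeR FDR was 0.00207. The fitted log2 value of 8.43 ran from 7.57 (without HOXA9 OFF replicate 2) to 10.57 (without control replicate 1, which held the only control read) when single libraries were left out.

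**Figure D2:**
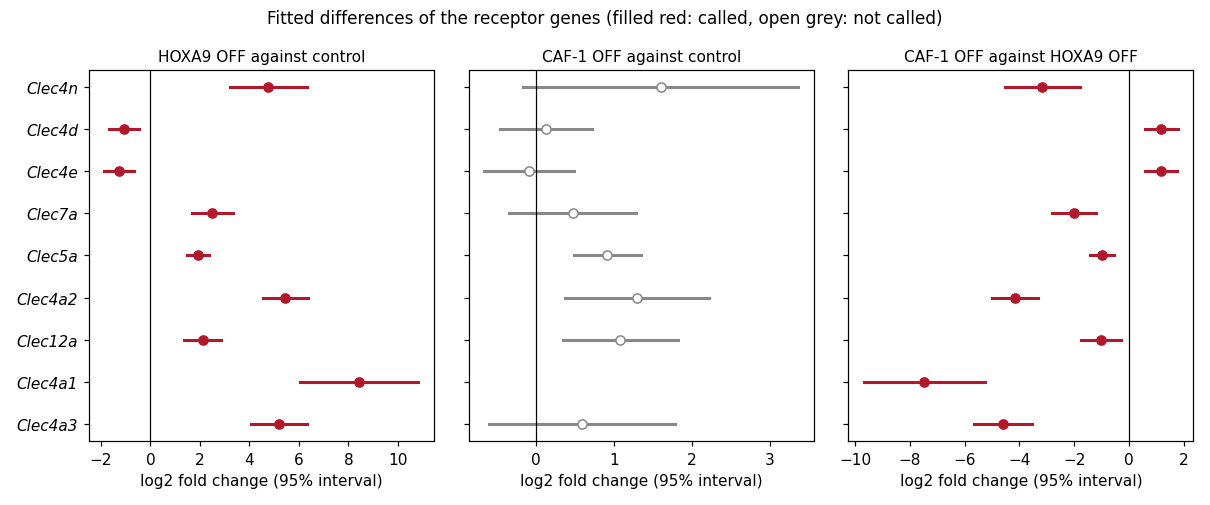
Fitted log2 fold change of each receptor gene (point) with its 95% interval (line) in the 3 comparisons, each panel with its own linear axis and a line at 0, filled red where the filtered edgeR test called the gene. That test called all 9 genes in both comparisons with HOXA9 OFF and 0 in CAF-1 OFF against control, where DESeq2 called 3 and Clec4a1 is not drawn because both groups had at most 2 reads per library.

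After 24 h of CAF-1 suppression, no receptor gene passed the test against control. In CAF-1 OFF against control, 0 of the 9 were called by edgeR, where 4 genes in the whole table were called (0.0321% of those tested). At an unadjusted p under 0.05 there were 3 receptor genes, Clec4a2, Clec5a and Clec12a, against 10.7% of all genes. Both CAF-1 OFF libraries lay above both control libraries for 4 receptor genes, Clec4a2, Clec4n, Clec5a and Clec12a, against 20.1% of all genes, and below them for 0. The log2 fold change was 0.92 ± 0.18 for Clec5a (SE, 95% interval 0.49 to 1.35, edgeR FDR 0.178). For Clec12a it was 1.08 ± 0.31 (interval 0.35 to 1.82, edgeR FDR 0.312), and for Clec4a2 it was 1.30 ± 0.39 (interval 0.38 to 2.21, edgeR FDR 0.325). The Clec4a2 value was 2.19 without control replicate 1 and 0.84 without control replicate 2. These 3 genes were called by DESeq2, with adjusted p-values of 0.000663 for Clec5a, 0.020 for Clec12a and 0.0224 for Clec4a2, where 192 genes (1.54%) were called in all, and the same 3 were called by edgeR with no filter on low counts, where 378 of 19883 genes (1.90%) were. For Clec4n the value was 1.60 ± 0.74 from fewer than 10 reads in each of the 4 libraries (interval -0.16 to 3.36, edgeR FDR 0.507).

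The remaining receptor genes overlapped between CAF-1 OFF and control. The log2 fold change was 0.59 ± 0.50 for Clec4a3 (SE, interval -0.60 to 1.78), 0.48 ± 0.34 for Clec7a (interval -0.34 to 1.29), 0.13 ± 0.25 for Clec4d (interval -0.46 to 0.72) and -0.08 ± 0.24 for Clec4e (interval -0.66 to 0.49). The lower bounds for Clec4d and Clec4e, -0.459 and -0.658, lay above their fitted values of -1.05 and -1.27 in HOXA9 OFF against control. Those values have intervals of their own, -1.65 to -0.446 for Clec4d and -1.85 to -0.677 for Clec4e. The intervals of the 2 comparisons thus overlapped for Clec4d, and both comparisons share the control libraries. With 2 libraries against 2, the smallest two-sided p of an exact permutation test on 1 gene is 0.333, and single genes rest on the spread that edgeR shares across genes.

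The direct comparison of the 2 perturbations, which shares libraries with both comparisons above, called all 9 receptor genes, against 22.1% of all tested genes. Without Clec4a1 and Clec4n, which passed the filter only through HOXA9 OFF, 2 were higher and 5 lower. Relative to HOXA9 OFF, 2 were higher in CAF-1 OFF, against 9.56% of all genes, and 7 lower, against 12.6%. In all 9 the libraries of the 2 groups did not overlap, as in 33.0% of all genes in the higher and 33.7% in the lower direction. Clec4d and Clec4e differed by 1.18 ± 0.25 each on the log2 scale (SE, edgeR FDR 0.0157 and 0.0142). Clec4a2 differed by -4.15 ± 0.35 (SE, edgeR FDR 0.000819), Clec4a3 by -4.60 ± 0.45 (0.00117), Clec4n by -3.16 ± 0.57 (0.00869) and Clec7a by -2.02 ± 0.34 (0.00654), all on the log2 scale. Clec4a1 was 189-fold higher in HOXA9 OFF by summed reads (exact 95% interval 52.0 to 1567 for counting error only, edgeR FDR 0.00252). Its fitted log2 value of -7.47 moved to -10.65 without CAF-1 OFF replicate 2, to -6.57 without CAF-1 OFF replicate 1 and to -6.60 without HOXA9 OFF replicate 2, and that of Clec4a3 moved to -3.96 without HOXA9 OFF replicate 2, with each still called. The 2 smallest of the 7 lower values were those of Clec5a, at -0.99 ± 0.18 (SE, edgeR FDR 0.00876), and Clec12a, at -1.03 ± 0.31 (SE, edgeR FDR 0.0444).

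Several of these calls rested on single libraries. In CAF-1 OFF against HOXA9 OFF, the edgeR FDR of Clec12a rose to 0.0906 without CAF-1 OFF replicate 1 (log2 fold change -1.17), to 0.15 without CAF-1 OFF replicate 2 (-0.88) and to 0.224 without HOXA9 OFF replicate 1 (-0.59). That of Clec4d rose to 0.0565 without CAF-1 OFF replicate 1 (1.1) and to 0.0506 without HOXA9 OFF replicate 1 (0.86), and that of Clec4e to 0.0544 without CAF-1 OFF replicate 1 (0.94). That of Clec4n rose to 0.0518 without HOXA9 OFF replicate 2, where its value moved from -3.16 to -2.33. With each library left out in turn, Clec4d was the only receptor gene that lost its call in HOXA9 OFF against control.

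Compared per transcript length, as RPKM (CPM divided by the merged exon length in kilobases), the order of the receptor genes differed between the groups. In control cells Clec4e was the highest at 44.5 ± 0.19 RPKM (SD, n = 2), followed by Clec4d at 24.9 ± 4.1 RPKM. Clec12a at 16.0 ± 5.6 RPKM and Clec5a at 15.7 ± 4.4 RPKM overlapped, Clec7a followed at 3.22 ± 1.2 RPKM, and Clec4a3 (1.08 ± 0.39 RPKM) and Clec4a2 (0.80 ± 0.50 RPKM) overlapped below it, with Clec4n at 0.0962 ± 0.020 RPKM and Clec4a1 last. In HOXA9 OFF cells Clec12a at 69.2 ± 25 RPKM and Clec5a at 59.2 ± 2.6 RPKM had the highest means and overlapped. Clec4a3 (38.5 ± 20 RPKM), whose range also overlapped that of Clec12a, and Clec4a2 (36.6 ± 9.3 RPKM) came next, and Clec4e (18.6 ± 6.3 RPKM) and Clec7a (18.4 ± 1.4 RPKM) overlapped below them. Clec4d (12.1 ± 4.4 RPKM), Clec4a1 (6.57 ± 4.3 RPKM) and Clec4n (2.79 ± 1.7 RPKM) came last, each overlapping the next, and Clec4d also overlapped Clec4e. In CAF-1 OFF cells Clec4e (42.0 ± 9.2 RPKM) and Clec12a (33.9 ± 4.6 RPKM) overlapped at the top, ahead of Clec5a (29.8 ± 0.076 RPKM) and Clec4d (27.2 ± 2.2 RPKM).

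The sum over the 9 genes was 111 and 101 RPKM in control, 151 and 132 RPKM in CAF-1 OFF and 261 and 262 RPKM in HOXA9 OFF. Clec4d and Clec4e, paired here after their values were seen, made up 59.7% and 71.5% of that sum in control, 51.2% and 46.4% in CAF-1 OFF and 8.83% and 14.6% in HOXA9 OFF. By RPKM, the receptor transcripts were mostly Mincle and its partner in control cells, and mostly Clec12a, Clec5a and the Clec4a genes after estradiol washout. This depends on merged exon length, which was 1336 bases for Clec4d and 2519 for Clec4e, against 5139 for Clec12a and 3820 for Clec5a. In CPM, control replicate 1 held 112 for Clec4e and 29.5 for Clec4d out of 329 for all 9 genes, which was not most of the sum. Control replicate 2 held 113 and 37.2 out of 268, which was.

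**Figure D3:**
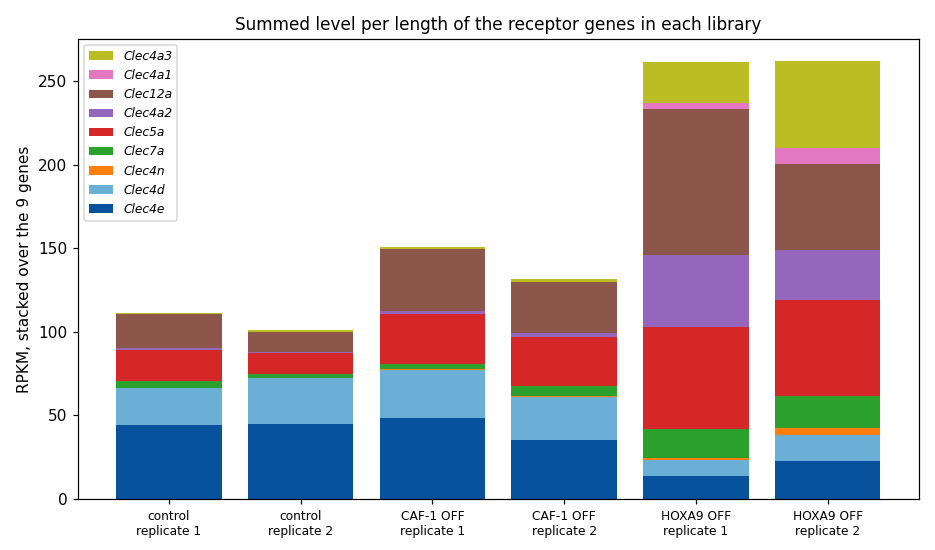
RPKM of the 9 receptor genes stacked in 1 bar per library, with an axis from 0 and each color a gene. The stack rises from 101 and 111 RPKM in control to 261 and 262 RPKM in HOXA9 OFF, while the blue portions of Clec4e and Clec4d shrink.

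All 9 genes lie on chromosome 6, in positions of mm9, as protein-coding genes that overlap no other gene. Clec5a stands alone on the minus strand at 40524897 to 40535804. A cluster of 6 receptor genes spans 368024 bases. In order it holds Clec4a1 (122871866 to 122884637), Clec4a3 (122902533 to 122919893), Clec4a2 (123056446 to 123094017), Clec4n (123179861 to 123197039) and Clec4d (123212125 to 123225286), all on the plus strand, and Clec4e (123231807 to 123239889) on the minus strand. Clec12a (129292709 to 129315321, plus strand) and Clec7a (129411611 to 129422790, minus strand) form a pair that spans 130082 bases.

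Within the cluster of 6, genes of like direction in HOXA9 OFF lay side by side. Of the receptor genes above the filter's level in every library, Clec4a3 and Clec4a2 were higher, and Clec4d and Clec4e, at the other end, were lower. Clec4a1 and Clec4n were also higher, but they passed the filter only through HOXA9 OFF and do not bear freely on this order. Between the end of Clec4n and the start of Clec4d lay 15085 bases. The other C-type lectin genes inside the cluster were Clec4a4, Clec4b1 and Clec4b2. Clec4b2, between Clec4a2 and Clec4n, had 2 and 0 reads in control, 3 and 6 in CAF-1 OFF and 72 and 45 in HOXA9 OFF, and was called higher in HOXA9 OFF against control (67.1-fold by summed reads, exact 95% interval 18.2 to 560 for counting error only, edgeR FDR 0.00248). Like Clec4a1 and Clec4n, it passed the filter only through HOXA9 OFF, so its call is no separate support for this order. Clec4a4 had at most 4 reads and Clec4b1 at most 1 in any library. Between Clec12a and Clec7a, the lectin genes Clec12b, Clec1a, Clec1b and Clec9a had at most 10 reads in any library, while both flanking receptor genes were higher.

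**Figure D4:**
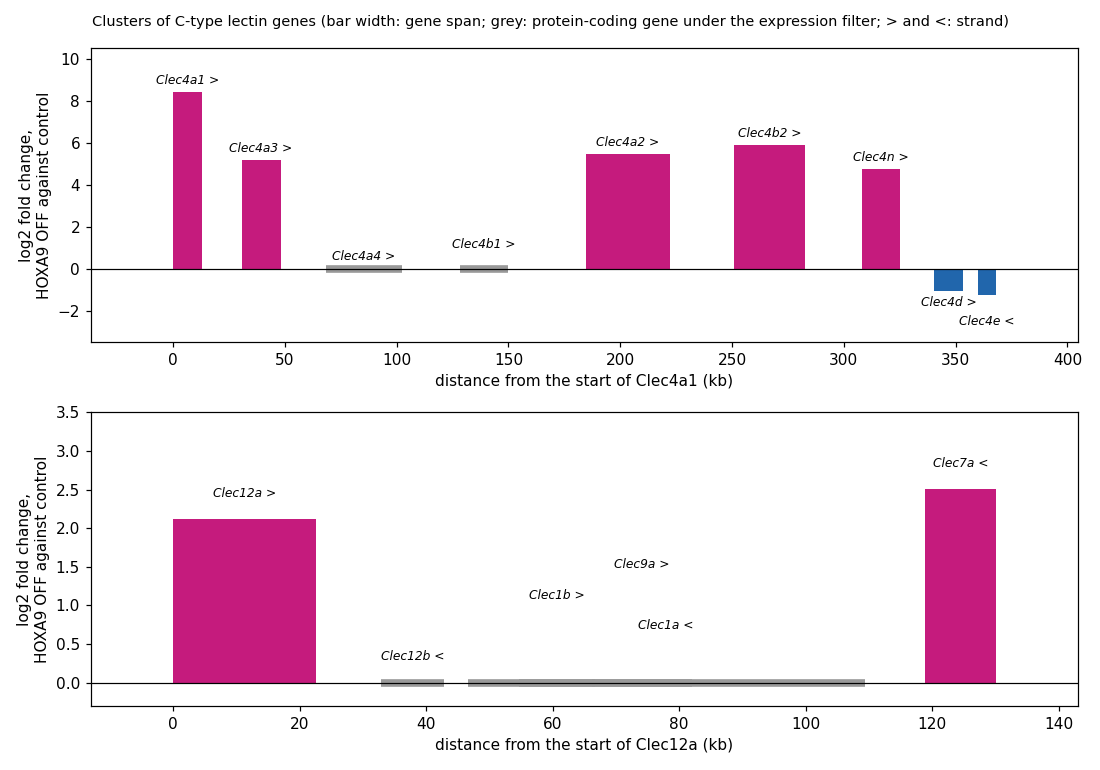
Log2 fold change in HOXA9 OFF against control (bar height) of the genes in the cluster of 6 (top) and the pair (bottom), drawn at their distance in kb along the chromosome from the first gene, with bar width as gene span and grey marks for protein-coding genes under the filter. Bars point up from Clec4a1 to Clec4n and down for Clec4d and Clec4e, and the fitted heights of Clec4a1 and Clec4b2 rest on 1 and 2 control reads.

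Over the 6 libraries, the pair of receptor genes with the most alike profiles was Clec4d and Clec4e, with a root mean square (RMS) distance of 0.165 between their centered log2 CPM, followed by Clec5a and Clec12a at 0.228. By the same measure, over 9608 genes with a mean of at least 5 CPM, the genes nearest to the mean profile of the receptor genes were Tlr2 (0.142), a receptor for bacterial lipoproteins, Rbm47 (0.149), Gas7 (0.176), Tbxas1 (0.181), thromboxane synthase, and Mef2c (0.209), a transcription factor. That mean averages genes of both directions and includes Clec4a1 and Clec4n, so it is the profile of no single receptor gene and these neighbours are likewise weighted toward the genes with large differences in HOXA9 OFF. The nearest gene to Clec4e was Ccl9 (0.144), a chemokine, and the nearest to Clec4d was Lrrc42 (0.0688). For Clec5a it was Nod1 (0.122), a sensor of bacterial peptidoglycan, for Clec7a Fgd4 (0.0995) and for Clec12a Fcnb (0.172), a ficolin. For Clec4a1 it was Csf1r (0.426), the receptor for macrophage colony-stimulating factor, for Clec4a3 Ahnak (0.358), for Clec4a2 F730016J06Rik (0.356) and for Clec4n 6430548M08Rik (0.322). These distances rest on 6 libraries in 3 groups and describe shape only.

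Part of the genes that carry the signal of these receptors were higher in HOXA9 OFF cells as well. Of a list of 29 adaptors, kinases, phosphatases and other regulators, 28 were tested, and in HOXA9 OFF against control 12 were called higher and 0 lower, against 13% and 8.97% of all tested genes, with a median log2 fold change of 0.60. Without control replicate 2 the count was 7, and that over all genes went from 2740 to 1602. Tyrobp, the DAP12 adaptor of Clec5a, stood at 110 and 114 CPM in control, 98.1 and 65.7 CPM in CAF-1 OFF and 327 and 297 CPM in HOXA9 OFF, a log2 fold change of 1.48 ± 0.19 in HOXA9 OFF against control (SE, edgeR FDR 0.00244). Fcer1g, the adaptor of Mincle, MCL and dectin-2, was abundant in every library at 114 to 224 CPM and was not called in HOXA9 OFF against control (0.32 ± 0.23, edgeR FDR 0.341).

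Syk was called higher in HOXA9 OFF against control, by 0.75 ± 0.11 on the log2 scale (SE, edgeR FDR 0.00432), and Malt1 by 0.81 ± 0.18 (edgeR FDR 0.0164). Card9 was under the fold cutoff (0.41 ± 0.094, edgeR FDR 0.0187), and Bcl10 did not pass the test (0.35 ± 0.17, edgeR FDR 0.166). Among the highest called values of the list were those of the Src-family kinase Fgr (2.61 ± 0.37, edgeR FDR 0.00369) and of Tnfaip3 (1.83 ± 0.28, edgeR FDR 0.00433), the ubiquitin-editing enzyme A20 that restrains NF-kB. The 3 lowest called values were 0.70 for Vav1, an exchange factor, 0.72 for the kinase Lyn and 0.72 for the ubiquitin ligase Itch. Of the phosphatases that ITIM receptors recruit, Ptpn6 was under the fold cutoff (0.53 ± 0.12, edgeR FDR 0.0161) and Inpp5d did not pass the test (0.31 ± 0.14, edgeR FDR 0.138).

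In CAF-1 OFF against control, 0 of the 28 signalling genes were called, and their median log2 fold change was -0.08. Tyrobp was -0.45 ± 0.18 (SE, edgeR FDR 0.453) and Fcer1g -0.20 ± 0.23 (edgeR FDR 0.801), values without a call. At an unadjusted p under 0.05 there were 3 of the 28 signalling genes, against 10.7% of all genes, and DESeq2 called 0. Against HOXA9 OFF, 12 of the 28 were called lower and 0 higher, where the shares over all tested genes were 12.6% and 9.56%.

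**Figure D5:**
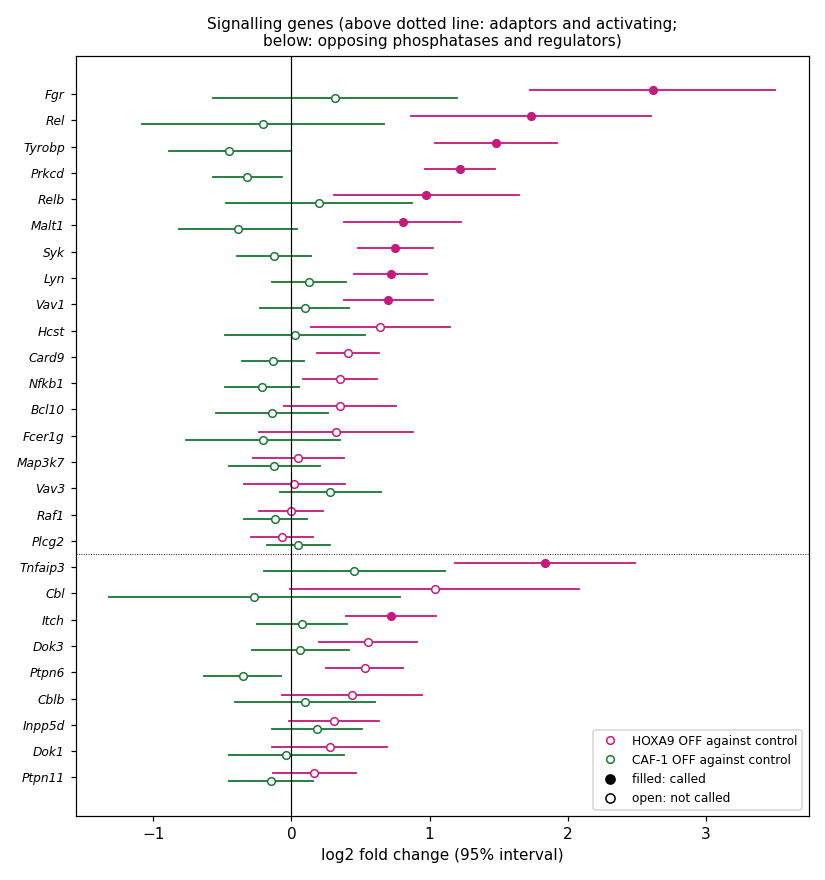
Log2 fold change (point) with its 95% interval (line) of 27 of the 28 tested signalling genes in HOXA9 OFF against control (magenta) and CAF-1 OFF against control (green), filled where called, with activating genes above the dotted line. In HOXA9 OFF 11 of these points are filled, from Vav1 at 0.70 to Fgr at 2.61, and in CAF-1 OFF all are open.

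Other genes of the C-type lectin superfamily were mostly silent, with 20 of 53 tested. In HOXA9 OFF against control 6 were called higher and 3 lower, against 13% and 8.97% of all tested genes, but 3 of the 6 (Klrk1, Clec10a and Clec4b2) passed the filter only through HOXA9 OFF, which leaves 3 higher and 3 lower. In CAF-1 OFF against control edgeR called 0, with 5 of 20 at an unadjusted p under 0.05, against 10.7% of all genes, and DESeq2 called 1, against 1.54% of all genes. The highest were Klrk1, the activating receptor NKG2D, at 0.275 and 0 CPM in control and 11.5 and 9.58 CPM in HOXA9 OFF, Clec10a, the galactose-type macrophage lectin, at 0.0786 and 0.232 CPM and 3.04 and 15.2 CPM, and Clec4b2, given above. The lowest were Cd248, endosialin, with 21 and 62 reads in control and 0 and 1 in HOXA9 OFF, Cd72, an ITIM-bearing lectin of B cells, at 14.8 and 28.0 CPM and 0.627 and 1.33 CPM, and Cd69, an activation marker, at 213 and 240 CPM and 45.6 and 61.4 CPM. Clec4d and Clec4e were thus not the only lectin genes that were lower after estradiol washout.

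Most tested monocyte, macrophage and neutrophil markers were higher in HOXA9 OFF than in control. So were 5 of the 7 receptor genes above the filter's level in every library, while Clec4d and Clec4e were lower. Of 15 monocyte and macrophage markers, 9 were tested and in HOXA9 OFF against control 7 were called higher, among them Csf1r (4.05 and 4.24 CPM in control, 215 and 292 CPM in HOXA9 OFF), and 1 lower (Ccr2), against 13% and 8.97% of all tested genes. Their summed level was 1460 and 1621 CPM in control, 1507 and 1841 CPM in CAF-1 OFF and 1888 and 2974 CPM in HOXA9 OFF, and Marco was at 0 in both HOXA9 OFF libraries. The sum was carried by F13a1 and Ccr2, and without these 2 genes it was 99.7 and 64.6 CPM in control, 82.9 and 138 CPM in CAF-1 OFF and 661 and 736 CPM in HOXA9 OFF. Between the HOXA9 OFF libraries, 9 of the 15 markers were higher in replicate 2 and 4 lower, and C1qb had 3 reads in replicate 1 and 291 in replicate 2. The neutrophil markers below went the other way in sum, with 1340 CPM in replicate 1 and 815 CPM in replicate 2. Of the receptor genes, 6 were higher in HOXA9 OFF replicate 2 (Clec4a1, Clec4a3, Clec4d, Clec4e, Clec4n and Clec7a) and 3 lower. The share of all genes higher in replicate 2 was not taken, so these counts tie the receptor genes to neither set of markers.

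Of 12 markers of maturing neutrophils, 11 were tested, and 10 were called higher and 0 lower in HOXA9 OFF against control, beside the same shares of 13% and 8.97%. Their summed level was 264 and 213 CPM in control, 694 and 942 CPM in CAF-1 OFF and 1340 and 815 CPM in HOXA9 OFF. Mmp8 alone made up 332 and 630 CPM of the CAF-1 OFF sums, and without it the sums were 194 and 172 CPM in control, 361 and 311 CPM in CAF-1 OFF and 1284 and 753 CPM in HOXA9 OFF. All 11 had positive fold changes in CAF-1 OFF against control, where edgeR called 0, with 6 at an unadjusted p under 0.05 (10.7% of all genes), and DESeq2 called 5 (1.54% of all genes). Of 9 progenitor markers, 8 were tested, with a median log2 fold change of -0.07 in HOXA9 OFF against control. Kit, Cd34, Flt3 and Ctsg were called lower, against 8.97% of all genes, and the other 4 (Mpo, Elane, Prtn3 and Ptprc) had positive values without a call. With the replicate number as a block, 2 of these 4 were called higher, as were 1588 of all 12460 genes tested. Flt3 stood at 237 and 329 CPM in control and 5.02 and 3.46 CPM in HOXA9 OFF. The part of such shifts in the receptor genes' levels was not tested.

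Markers of most other cell types were low. T cell markers summed to at most 0.203 CPM, natural killer cell markers to at most 5.40 CPM, B cell markers to at most 7.69 CPM, dendritic cell markers to at most 10.4 CPM, erythroid markers to at most 4.88 CPM and stromal markers to at most 25.3 CPM in any library. Mast cell and basophil markers were not, with sums of 206 and 167 CPM in control, 591 and 229 CPM in CAF-1 OFF and 243 and 308 CPM in HOXA9 OFF. Of their 4 tested genes, edgeR and DESeq2 each called 0 between CAF-1 OFF and control. There 2 (Cpa3 and Mcpt8) had an unadjusted edgeR p under 0.05, against 10.7% of all genes. The same 2 had both CAF-1 OFF libraries above control, against 20.1% of all genes. In CAF-1 OFF against HOXA9 OFF, edgeR called 1 (Mcpt8) higher, against 9.56% of all genes. In HOXA9 OFF against control, edgeR and DESeq2 each called 0, and 0 had an unadjusted edgeR p under 0.05. Their part in the receptor genes' values was not tested.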

How the data were processed

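Bulk RNA-seq of 6 libraries, 2 per group, was analysed, with groups taken from the sample titles. Per the study's methods and the submitters' processing notes, the authors aligned reads to mm9 with STAR and counted them with HTSeq, and the deposited values are whole-number read counts for each gene symbol, not normalized. The annotation, strand setting and overlap mode of the counting are not given in the sources used here. The 5 tally lines of each table, 50.2% to 53.9% of all its counts, were left out. Counts were tested in edgeR 4.0.16 with R 4.3.3, after filterByExpr by group and TMM scaling, in 1 quasi-likelihood fit over all libraries with no replicate term, and FDR values are Benjamini-Hochberg adjusted. Standard errors and 95% intervals came from the F statistic. DESeq2 1.42.0 was an alternative. RPKM divided CPM by the merged exon length of the mm9 annotation. Profiles were compared on log2 CPM (prior count 2).

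The receptor genes, the gene lists and the cell markers, written from general knowledge of the pathway, were chosen with earlier results of these data known, and no list is independent support. Named are all 9 receptor genes, 8 fixed signalling genes, the 3 highest and 3 lowest called in each list in HOXA9 OFF against control, any gene of these lists that the filtered edgeR test called for CAF-1 OFF against control (there were 0), lectin genes inside the clusters, and the genes nearest in profile. Marker genes were outside this rule, and those named were chosen after their values were seen. Some genes that the rule would name are not reported here. Deviations of same-numbered libraries from their group means correlated at 0.456 (HOXA9 OFF and control), -0.178 (CAF-1 OFF and control) and 0.0329 (CAF-1 OFF and HOXA9 OFF), which does not show that the numbers pair the libraries. Promoter sequences came from RefSeq windows on GRCm38.p6, and 8 of 9 genes had one. The edgeR script was tested on simulated counts before use.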

Additional observations from a re-analysis of the deposited data

How the results depend on the processing

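The 9 calls of receptor genes in HOXA9 OFF against control and in CAF-1 OFF against HOXA9 OFF were also made with DESeq2 size factors, with library size alone, with DESeq2, with no filter and with only the compared libraries. With the replicate number as a block, the receptor genes called were 9 in HOXA9 OFF against control, 0 in CAF-1 OFF against control and 9 in CAF-1 OFF against HOXA9 OFF, so the block changed no call of a receptor gene. At a mean of at least 5 CPM, 7 receptor genes were tested and all 7 were called in both comparisons with HOXA9 OFF. At 2-fold and an FDR under 0.01, 7 receptor genes were called in HOXA9 OFF against control and 5 in CAF-1 OFF against HOXA9 OFF, and the signalling genes called fell from 12 to 5 in both, while the calls over all genes fell from 2740 to 987 and from 2755 to 948. In CAF-1 OFF against control, where the main count was 0, DESeq2 and edgeR with no filter each called 3 receptor genes. Other lectin genes called in that comparison numbered 1 of 20 by DESeq2, against 1.54% of all genes, and 5 of 38 with no filter, against 1.90%. With the replicate numbers crossed 1 was called, an alternative added after the data were seen because the correlation of that pairing was -0.178. The crossed block called 71 genes in all. In HOXA9 OFF against control the other lectin genes called went from 9 of 20 tested to 16 of 38 with no filter, where 3215 of 19883 genes were called, and to 5 at the stricter cutoffs. In CAF-1 OFF against HOXA9 OFF the main fit called 4 higher and 6 lower, against 9.56% and 12.6% of all tested genes. Of the 6 lower, 4 passed the filter only through HOXA9 OFF, which leaves 2. The 10 calls went to 5 at a mean of at least 5 CPM, where fewer lectin genes were tested and 2254 of 9612 genes were called, and to 6 at the stricter cutoffs.

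When each library was left out in turn, the lone library being assumed to vary like the others, the receptor genes called numbered 8 to 9 in HOXA9 OFF against control, 6 to 8 in CAF-1 OFF against HOXA9 OFF and 0 in CAF-1 OFF against control. The signalling genes called numbered 7 to 10 and 8 to 15 in the comparisons with HOXA9 OFF, and the other lectin genes 6 to 10 and 7 to 10, while the calls over all genes numbered 1602 to 2128 and 1711 to 2718. Of the fold changes, 4 changed sign, all in CAF-1 OFF against control and none called. Without CAF-1 OFF replicate 2 the log2 value was -2.23 for Clec4a1, 0.14 for Clec4e and -0.0060 for Clec7a, and without control replicate 1 it was -0.026 for Clec4d. Over all the libraries left out, these values ran from -2.23 to 3.12 for Clec4a1, from -0.33 to 0.14 for Clec4e, from -0.0060 to 0.93 for Clec7a and from -0.026 to 0.31 for Clec4d. The cause of these differences was not tested. Clec4a1 and Clec4n had at most 9 reads in any control or CAF-1 OFF library, which limits the precision of their fold changes.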
